A study of Sus scrofa with 8 samples.

Results

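The genes studied here are 8 genes of red blood cells and heme, followed through pig limb muscle: HBB, ALAS2, SLC4A1, TFR2, TFRC, GATA1, KLF1 and EPB42. They were taken by symbol, and all 8 were found among the 22516 gene identifiers measured. Counts were high enough for testing in 7 of the 8, and KLF1 did not pass the low-count filter. RNA from limb muscle of pig embryos was sequenced in bulk on embryonic days 41 (E41) and 62 (E62), in wild type (WT) and in a knockout (KO) of MYF5, MYOD and MYF6, which are transcription factors needed for skeletal muscle to form. Each combination of genotype and stage had 2 libraries, called WT E41, KO E41, WT E62 and KO E62. The series title speaks of a knockdown where the samples speak of a knockout, and the growth protocol gives a slightly earlier day for the later stage.

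Red cells form through an erythroid program in which GATA1 and KLF1 switch on globin, heme and membrane genes. ALAS2 makes the rate-limiting step of heme synthesis in erythroid cells, and heme is built into hemoglobin with globin chains such as the beta chain from HBB. SLC4A1, known as band 3, exchanges anions across the red cell membrane, and EPB42 (protein 4.2) ties it to the skeleton beneath. Iron for heme arrives bound to transferrin: TFRC takes it up in dividing and erythroid cells, and TFR2 is a related receptor best known from liver and erythroid cells as a sensor of iron-loaded transferrin. No cell type was isolated, so for each of these genes fewer cells of a type and less RNA per cell cannot be told apart.

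The genes lie apart in the genome. In the RefSeq annotation of Sscrofa11.1, HBB lies on chromosome 9 at 4800683 to 4801941, ALAS2 on chromosome X at 47871519 to 47896041 and GATA1 on chromosome X at 42898431 to 42905939. KLF1 lies on chromosome 2 at 66144767 to 66148500, SLC4A1 on chromosome 12 at 18957813 to 18975266 and EPB42 on chromosome 1 at 128231863 to 128253696. The transferrin receptors lie on chromosome 3 at 8539316 to 8553993 (TFR2) and chromosome 13 at 133976765 to 133997554 (TFRC). The deposited rows are whole genes, so no value belongs to an exon, intron or UTR.

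The libraries held 23402052 to 60539245 counts, and levels are given as CPM, each count scaled to its library's total after TMM correction. Knockout libraries matched their labels: MYF5 and MYF6 had 0 counts in all 4, MYOD1 was at 0.434 to 1.47 CPM against 72.6 to 172 in wild type, and 14 muscle genes summed to 16.1 to 31.1 CPM against 27780 to 65370 in wild type, so the knockout tissue was nearly without muscle transcripts. Names of the libraries carry a number that is the same within a group and differs between groups, and what it marks is not stated, so it cannot be told apart from group. The name of WT E41 holds the code LHL and the other 3 groups RHL, so that code goes with the groups in the E41 knockout comparison, the wild-type stage comparison and the difference between stages, and is shared in the E62 knockout and knockout stage comparisons. The names of KO E62 lack an ending that those of the other 3 groups share. That ending goes with the groups in the E62 knockout comparison, the knockout stage comparison and the difference between stages. KO E62 replicate 2 stood apart from replicate 1: over the 500 most variable genes the pair lay 41.2 apart on the second principal component, where no other pair lay more than 8.28 apart. Titles call the replicates biological but name no animals. Within a group the library names differ in a suffix, which begins with Emb in KO E62, and what it marks is not stated. The p-values measure only the spread between these libraries.

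HBB and ALAS2, the genes of hemoglobin and heme, had higher means in knockout at both stages, but neither difference passed the test. HBB was at 3683 and 2624 CPM in WT E41, 4428 and 9233 in KO E41, 4109 and 1138 in WT E62 and 4334 and 8013 in KO E62. KO libraries lay above WT at each stage without overlap, by a narrow margin at E62. As a ratio, the 2 replicates of WT E62 differed 3.61-fold, more than the 2.35-fold between KO and WT at E62. In edgeR's quasi-likelihood fit the log2 difference, KO minus WT, was 1.12 ± 0.70 (SE, n = 2 per group, adjusted p = 0.26) at E41 and 1.23 ± 0.71 (adjusted p = 0.2) at E62. Without WT E62 replicate 1 the latter was 2.44 (adjusted p = 0.038), 0.72 (adjusted p = 0.55) without KO E62 replicate 2 and 0.58 (adjusted p = 0.47) without WT E62 replicate 2. At E41 it was 0.49 (adjusted p = 0.71) without KO E41 replicate 2. Counts of HBB may include reads shared with near-identical globin copies, and HBA and HBE1 were not analysed here.

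ALAS2 was at 107 and 60.6 CPM in WT E41, 94.6 and 215 in KO E41, 104 and 31.4 in WT E62 and 94.2 and 165 in KO E62. The groups overlapped at both stages. The difference was 0.89 ± 0.74 (adjusted p = 0.4) at E41 and 0.94 ± 0.74 (adjusted p = 0.35) at E62. At E41 it was 0.18 with KO E41 replicate 2 left out, 0.56 with WT E41 replicate 2, 1.37 with KO E41 replicate 1 and 1.40 with WT E41 replicate 1. At E62 it was 2.04 without WT E62 replicate 1, 0.31 without WT E62 replicate 2 and 0.47 without KO E62 replicate 2, none past the threshold. From E41 to E62, HBB differed by -0.27 ± 0.70 in wild type and -0.15 ± 0.69 in knockout, and ALAS2 by -0.30 ± 0.74 and -0.26 ± 0.74, all with adjusted p of 0.77 or more.

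**Figure D1:**
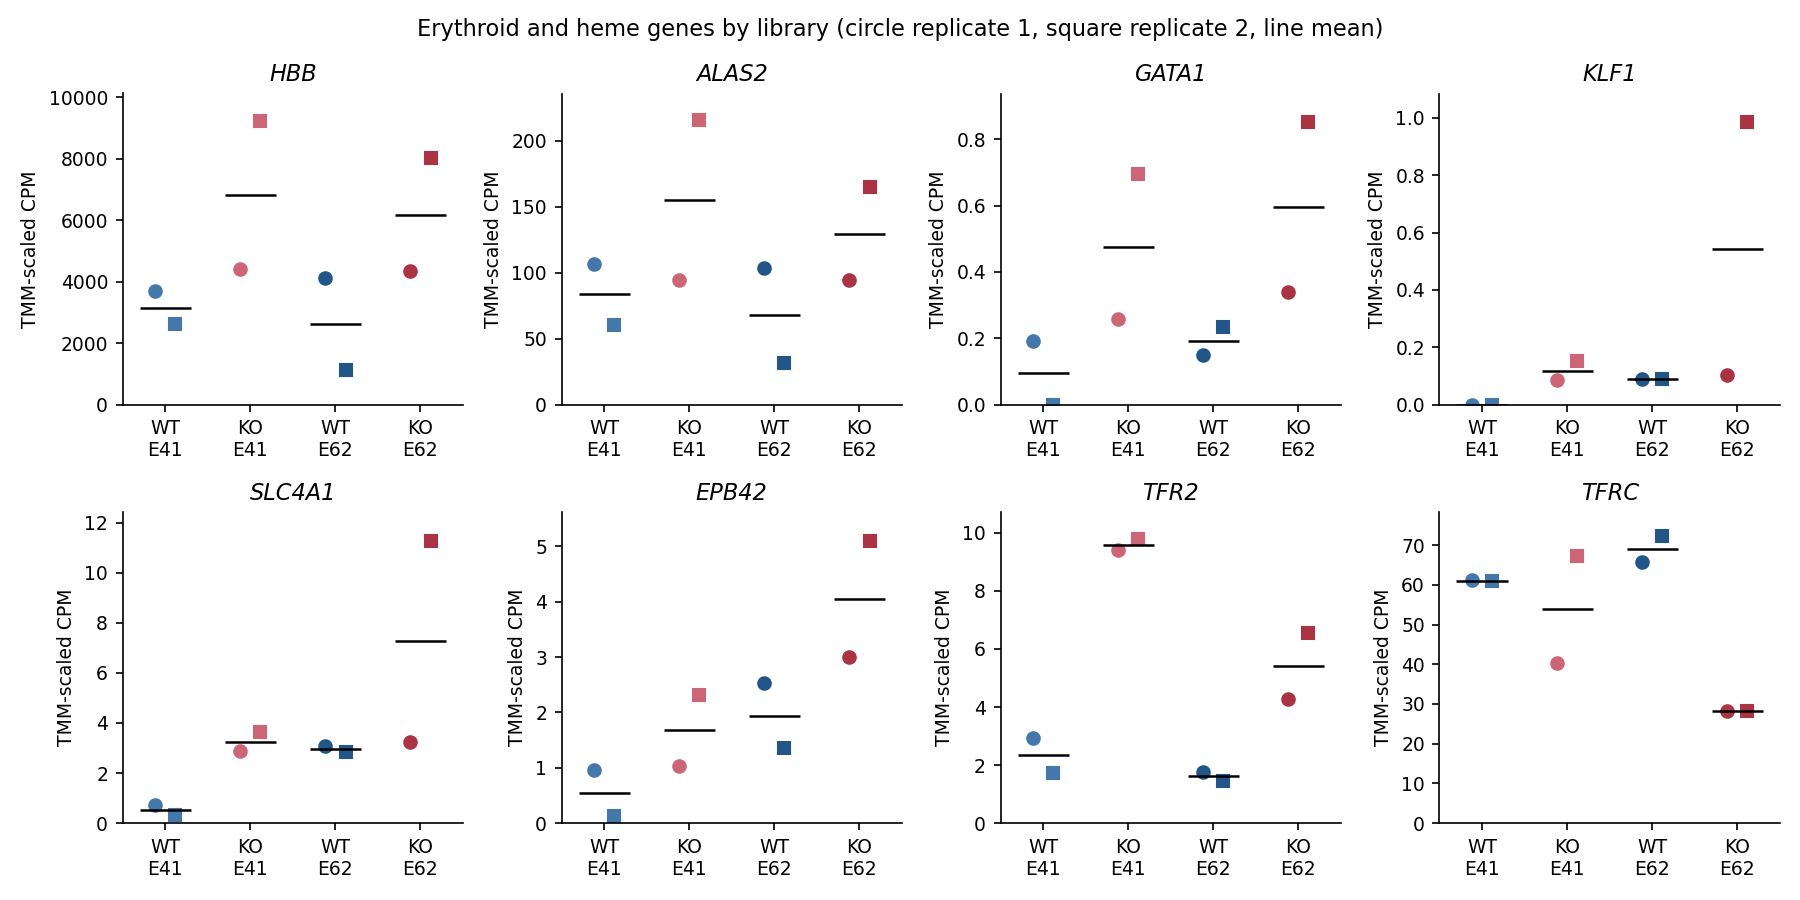
Level of each of the 8 genes in every library, as TMM-scaled CPM, by group, with a bar at the group mean (2 libraries per group, circle replicate 1, square replicate 2). HBB and ALAS2 spread within every group, TFR2 is high in both knockout groups, and TFRC is low in KO E62.

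The regulators GATA1 and KLF1, DNA-binding factors of the erythroid program, were near the limit of detection. GATA1 had 4 and 0 counts in WT E41, 12 and 32 in KO E41, 5 and 8 in WT E62 and 23 and 51 in KO E62. Knockout libraries held more counts in total, and in CPM both KO groups still lay above the WT group of their stage. At E41 the margin was narrow, with 0.193 CPM in WT E41 replicate 1 and 0.258 in KO E41 replicate 1. The log2 difference was 2.31 ± 1.15 (adjusted p = 0.15) at E41 and 1.60 ± 0.95 (adjusted p = 0.2) at E62, neither past the threshold. Without 1 library it ranged from 1.30 (WT E41 replicate 2) to 7.39 (WT E41 replicate 1, which leaves only the library with 0 counts) at E41 and from 0.80 (KO E62 replicate 2) to 2.11 (KO E62 replicate 1) at E62, with no call. Of KLF1 there were 0 and 0 counts in WT E41, 4 and 7 in KO E41, 3 and 3 in WT E62 and 7 and 59 in KO E62. The 59 counts of KO E62 replicate 2 were the highest, and a group with 0 counts allows up to 3. In CPM, KLF1 was at 0.0902 and 0.0883 in WT E62 and 0.103 and 0.984 in KO E62. In a fit without the low-count filter, KLF1 had an adjusted p of 0.17 at E41 and 0.12 at E62. With 1 library left out, KLF1 passed the filter in every fit but that without KO E62 replicate 2. In the fit without KO E62 replicate 1, its KO E62 value rests on the library with 59 counts alone.

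The membrane genes SLC4A1 and EPB42 were low throughout. SLC4A1 was at 0.72 and 0.31 CPM in WT E41, 2.88 and 3.63 in KO E41, 3.10 and 2.83 in WT E62 and 3.23 and 11.3 in KO E62. WT E41 was lower than every other group, and the KO E62 value rests on 1 high library. SLC4A1 rose 6.32-fold in knockout at E41 (log2 2.66 ± 0.68, adjusted p = 0.019) and 5.75-fold from E41 to E62 in wild type (log2 2.52 ± 0.68, adjusted p = 0.024). At E62 the knockout difference was 1.29 ± 0.57 (adjusted p = 0.1), and the knockout effects of the 2 stages differed by -1.37 ± 0.88 (adjusted p = 0.29).

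The SLC4A1 calls rest on few counts, from 7 to 676. Limma-voom made neither, with adjusted p of 0.26 at E41 and 0.29 in the wild-type stages. In edgeR at E41 the adjusted p was 0.12 without WT E41 replicate 2, 0.051 when KO E41 replicate 1 was dropped and 0.071 when replicate 2 of that group was. In the wild-type stage comparison it was 0.054, 0.13, 0.072 and 0.067 without WT E41 replicate 1, WT E41 replicate 2, WT E62 replicate 1 and WT E62 replicate 2. At E62 the knockout difference was 1.92 (adjusted p = 0.0046) without KO E62 replicate 1 and 0.12 (adjusted p = 0.84) without replicate 2. Without KO E62 replicate 2 the difference between stages was -2.54 (adjusted p = 0.022).

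EPB42 was at 0.97 and 0.13 CPM in WT E41, 1.03 and 2.32 in KO E41, 2.53 and 1.35 in WT E62 and 3.01 and 5.11 in KO E62. Knockout lay above wild type at both stages, narrowly at E41. The difference was 1.63 ± 0.82 (adjusted p = 0.16) at E41 and 1.06 ± 0.72 (adjusted p = 0.26) at E62. At E41 it was 3.67 (adjusted p = 0.035) without WT E41 replicate 1, 0.93 without KO E41 replicate 2 and 0.81 without WT E41 replicate 2. At E62 it was 0.68 without WT E62 replicate 2 and 0.63 without KO E62 replicate 2.

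The transferrin receptors gave the firmest calls. TFR2 was at 2.95 and 1.73 CPM in WT E41, 9.41 and 9.79 in KO E41, 1.77 and 1.44 in WT E62 and 4.26 and 6.54 in KO E62. All 4 knockout libraries lay above all 4 wild-type libraries. TFR2 rose 4.12-fold in knockout at E41 (log2 2.04 ± 0.33, adjusted p = 0.0024) and 3.35-fold at E62 (log2 1.75 ± 0.33, adjusted p = 0.0035). Both calls held in all 18 alternatives run for each, and without KO E62 replicate 2 the E62 difference was 1.40 (adjusted p = 0.014). The effects of the 2 stages differed by -0.30 ± 0.46 (adjusted p = 0.67), and KO E62 was 0.83 ± 0.31 below KO E41 (adjusted p = 0.076).

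TFRC moved the other way, and at the later stage. TFRC was at 61.3 and 60.9 CPM in WT E41, 40.3 and 67.2 in KO E41, 65.6 and 72.4 in WT E62 and 28.2 and 28.2 in KO E62. KO E62 was below every other library, and at E41 the knockout libraries lay on both sides of wild type. TFRC fell 2.45-fold in knockout at E62 (log2 -1.29 ± 0.21, adjusted p = 0.0026), a call that held in all 18 alternatives, with -1.29 (adjusted p = 0.016) without KO E62 replicate 2. At E41 the difference was -0.18 ± 0.21 (adjusted p = 0.53). It was -0.59 (adjusted p = 0.015) when KO E41 replicate 2 was dropped, 0.14 (adjusted p = 0.43) when replicate 1 was and 0.10 (adjusted p = 0.7) with library size alone as scaling.

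The knockout effect on TFRC differed between stages by -1.11 ± 0.30 (adjusted p = 0.034), and from E41 to E62 TFRC fell in knockout by 0.93 ± 0.21 on the log2 scale (adjusted p = 0.018). In wild type the stage difference was 0.18 ± 0.21 (adjusted p = 0.54). The difference between stages lost its call, at adjusted p of 0.069 to 0.096, when any of 6 libraries was left out. The fall within knockout lost it without KO E62 replicate 1 (adjusted p = 0.06) or replicate 2 (adjusted p = 0.075), and with only the groups compared in the fit (adjusted p = 0.079).

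**Figure D2:**
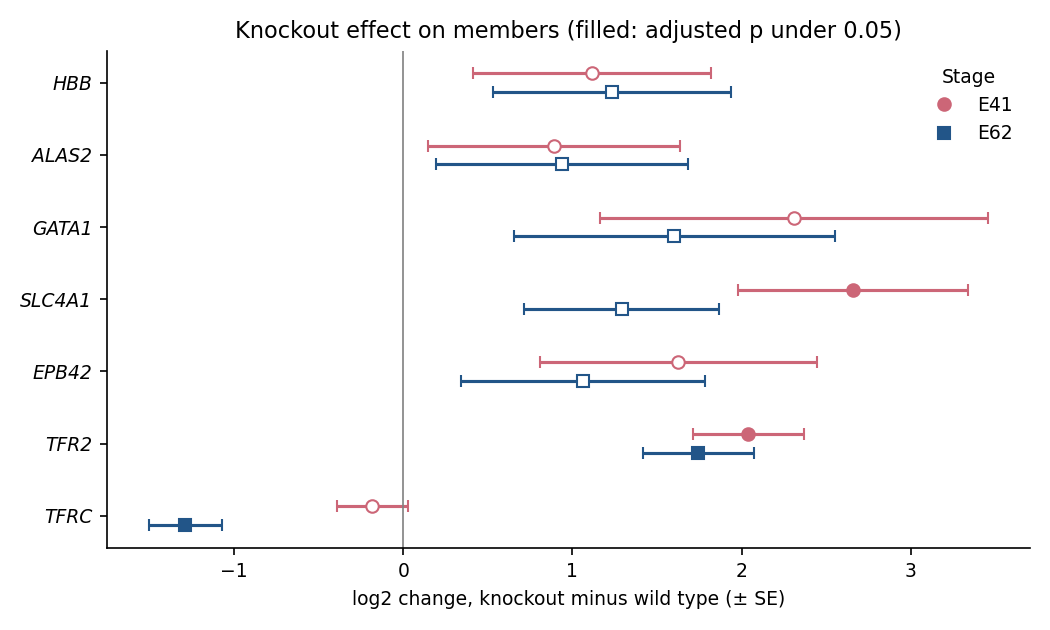
Log2 difference, knockout minus wild type, with its standard error, for the 7 tested genes at E41 and E62 (filled: adjusted p under 0.05). TFR2 is filled at both stages, at 2.04 and 1.75, SLC4A1 at E41 and TFRC at E62, where it is at -1.29.

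Across the 7 tested genes, 2 rose and 0 fell in knockout at E41, where 18.5% of all 17020 tested genes rose and 20.8% fell (39.2% called in all). At E62, 1 rose and 1 fell, where 21% of all genes rose and 26.2% fell (47.2% called in all). The knockout effect differed between stages for 1 of 7, as a lower effect at E62 (15.5% of all genes lower, 26.8% either way). From E41 to E62, 1 rose in wild type (19.8% of all genes higher, 39.8% either way) and 1 fell in knockout (18% lower, 30.1% either way). In each comparison the share of the 7 called in either direction was below that over all genes. The median log2 difference of the 7 was 1.63 at E41 and 1.23 at E62, against 0.09 and 0.06 over all tested genes. Groups did not overlap, with knockout higher, in 5 of 7 at each stage, where 40.1% of all genes did so at each stage. KO minus WT at E41 and KO minus WT at E62 share no library, but each shares libraries with the stage comparisons.

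Red cell transcripts were also set against HBB in the same library, which removes library size. ALAS2 kept close to HBB: per 1000 HBB counts there were 28.9 and 23.1 ALAS2 counts in WT E41, 21.4 and 23.3 in KO E41, 25.3 and 27.6 in WT E62 and 21.7 and 20.6 in KO E62. The highest of these ratios was 1.41 times the lowest, while HBB itself spanned 8.11-fold in CPM over the libraries and ALAS2 6.86-fold. AHSP, the chaperone of free alpha globin, was at 6.46 and 6.64 per 1000 HBB counts in WT E41 and between 1.52 and 2.43 in the other 6 libraries.

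The membrane genes kept less close to HBB, on far fewer counts. Counts per library were 7 to 676 for SLC4A1 and 3 to 306 for EPB42, against 1067 to 9925 for ALAS2. How much of their spread is sampling noise was not tested. SLC4A1 was at 0.197 and 0.118 counts per 1000 HBB counts in WT E41, 0.651 and 0.393 in KO E41, 0.754 and 2.48 in WT E62 and 0.745 and 1.41 in KO E62. WT E41 was below all other libraries. EPB42 was between 0.0506 and 0.262 in the 4 E41 libraries and between 0.615 and 1.19 in the 4 E62 libraries, so the stages did not overlap. The lowest EPB42 ratio, in WT E41 replicate 2, rests on 3 counts. TFRC ranged from 3.52 to 63.6 per 1000 HBB counts, an 18.1-fold span. These ratios are descriptions, with no test.

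**Figure D3:**
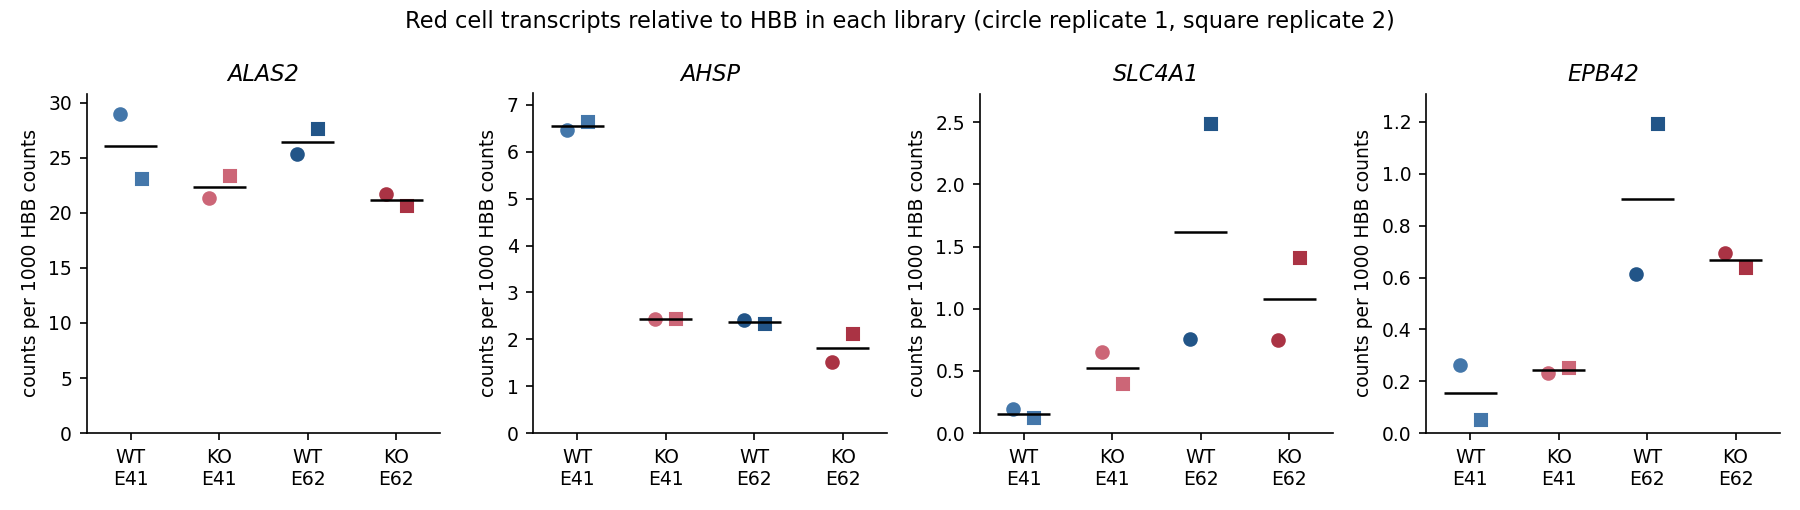
Counts of ALAS2, AHSP, SLC4A1 and EPB42 per 1000 HBB counts in each library (circle replicate 1, square replicate 2, bar at the group mean). ALAS2 stays between 20.6 and 28.9, AHSP is high in WT E41, and EPB42 is higher at E62 than at E41.

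Replicates differed in HBB more than in most genes. The higher replicate had 1.40 times the HBB CPM of the lower in WT E41, 2.08 in KO E41, 3.61 in WT E62 and 1.85 in KO E62, where the median tested gene differed 1.10- to 1.15-fold. In WT E62, 98.0% of tested genes had a smaller ratio than HBB. ALAS2, SLC4A1, EPB42 and TFR2 had the same higher replicate as HBB in all 4 groups, 4 of the 6 other tested genes, as did 5% of all tested genes. TFRC and GATA1 did not, keeping the order of HBB in 2 and 3 of the 4 groups. None of 16 iron genes did, a share near that 5%. Some of the shared orders were near ties. The TFR2 replicates differed 1.04-fold in KO E41 and those of SLC4A1 1.10-fold in WT E62.

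By the root mean square difference of centred log2 CPM over the 8 libraries, DMTN, the membrane skeleton protein dematin, was most like ALAS2 (0.353). TMEM145 was most like TFR2 (0.159), followed by BOC (0.24) and PRRX2 (0.25). MSRB3 was most like TFRC (0.141), followed by PDGFD (0.186). For SLC4A1 the nearest, HAS3, was at 0.5. Candidates were 11904 tested genes with a symbol and a mean of at least 2 CPM.

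Of 3 other globin genes and AHSP, listed together, HBQ1, a theta globin, was the 1 called in knockout at E41 and rose in knockout at E41 (log2 1.24 ± 0.31, adjusted p = 0.015), and that call was lost without WT E41 replicate 1 (adjusted p = 0.063), KO E41 replicate 1 (0.072) or that group's replicate 2 (0.061). At E62, edgeR called 0 of the 4, with 0 at an unadjusted p under 0.05 and 0 by DESeq2 or limma-voom. AHSP differed by -0.32 (adjusted p = 0.78) at E41 and 0.91 (adjusted p = 0.38) at E62. The median over these 4 was 1.42 at E41 and -0.12 at E62.

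Of 13 heme synthesis genes, 0 rose and 2 fell at E41, and 1 rose and 4 fell at E62, with medians of -0.13 and -0.25. The shares called were 15.4% and 38.5%, against 39.2% and 47.2% of all genes. UROS, which closes the porphyrin ring, differed by -0.51 ± 0.14 (adjusted p = 0.022) and PPOX, a late step, by -0.41 ± 0.13 (adjusted p = 0.042) at E41, and both calls were lost when any of the 4 E41 libraries was left out. At E62 UROS fell by 0.72 ± 0.14 on the log2 scale (adjusted p = 0.0037), as did CPOX by 0.59 ± 0.12 (adjusted p = 0.0053) and CLPX, a chaperone that activates ALAS, by 0.51 ± 0.09 (adjusted p = 0.0028). With library size alone, adjusted p was 0.09 for CPOX and 0.085 for CLPX. Of 8 heme breakdown and transport genes, 1 rose and 2 fell at E41 and 2 rose and 1 fell at E62. The share of the 8 called was 37.5% at each stage, below that over all genes. At E41, 0 rose without KO E41 replicate 1, 2 rose when any 1 of the 4 wild-type libraries was left out, and 1 fell without KO E41 replicate 2, and at E62 0 fell without WT E62 replicate 1 or KO E62 replicate 1. HMOX1, which opens the heme ring, rose at E62 (0.85 ± 0.16, adjusted p = 0.0032), as did the biliverdin reductase BLVRB (1.23 ± 0.24, adjusted p = 0.0042). The heme transporter family gene FLVCR2 fell at E41 by 1.65 ± 0.20 on the log2 scale (adjusted p = 0.00066).

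Of 16 iron genes tested, 1 rose and 3 fell at E41 (25% called, against 39.2% of all genes), and 6 rose and 4 fell at E62 (62.5%, against 47.2%), with medians of 0.10 and 0.34. Without WT E62 replicate 1 the E62 counts were 3 and 3, and at E41 3 rose without either WT E62 library and 0 without replicate 2 of WT E41 or of KO E41. FTL, the ferritin light chain that stores iron, was at 611 and 557 CPM in WT E62 and 1322 and 1092 in KO E62, and rose there by 1.05 ± 0.14 (adjusted p = 0.00059). STEAP3, the endosomal iron reductase of erythroid cells, rose at E62 by 3.26 ± 0.62 (adjusted p = 0.0036) and HFE, a partner of the transferrin receptors, by 1.21 ± 0.24 (adjusted p = 0.0044). HJV, a muscle-expressed regulator of hepcidin, fell by 8.81 ± 0.22 at E41 and by 8.65 ± 0.20 at E62 (adjusted p = 1.8e-07 and 7.9e-08). ACO1, an iron-responsive RNA-binding protein, fell at E41 by 0.81 ± 0.11 (adjusted p = 0.001), and IREB2, the other such protein, fell at E62 by 0.50 ± 0.11 (adjusted p = 0.0065, and 0.14 with library size alone). HFE and IREB2 were named after their values were seen.

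**Figure D4:**
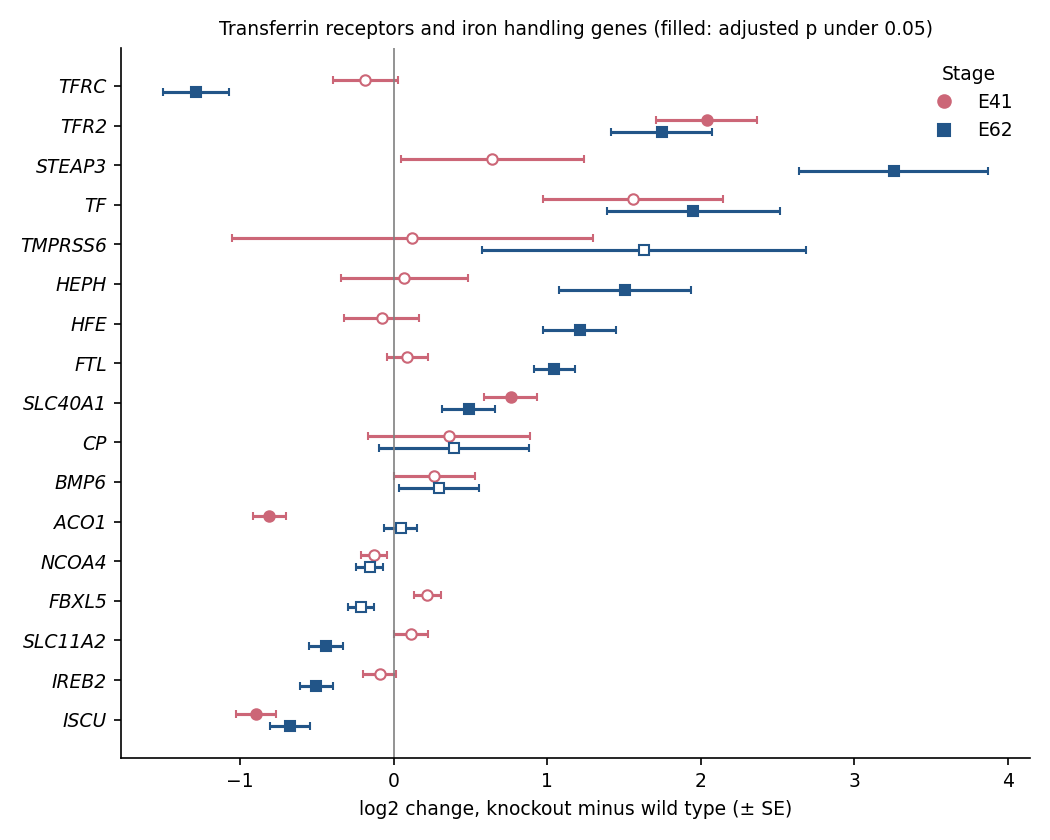
Log2 difference, knockout minus wild type, with its standard error, for TFRC, TFR2 and 15 iron genes at E41 and E62 (filled: adjusted p under 0.05). HJV, at -8.81 and -8.65, is left out for scale. TFRC at E62 is the lowest value shown and STEAP3 at E62 the highest.

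Of 19 red cell membrane genes tested, 3 rose and 5 fell at E41 and 4 rose and 5 fell at E62. The shares called, 42.1% and 47.4%, were near the 39.2% and 47.2% of all genes. SPTB, beta spectrin, was at 97.4 and 93.7 CPM in WT E41 and 2.002 and 1.91 in KO E41, and fell by 5.61 ± 0.53 (adjusted p = 0.00089). It fell by 6.53 ± 0.53 at E62 (adjusted p = 0.00033). TMOD1, which caps actin filaments, fell by 6.997 ± 0.26 at E41 (adjusted p = 2.9e-06) and by 7.82 ± 0.27 at E62 (adjusted p = 1.1e-06), and XK, a membrane protein of red cells and muscle, by 2.75 ± 0.17 and 4.24 ± 0.18 (adjusted p = 2.9e-05 and 2.1e-06). All 14 muscle genes tested also fell at both stages. Whether the SPTB, TMOD1 and XK transcripts came from red cells or from muscle was not tested. ADD2, beta adducin, rose by 1.37 ± 0.31 at E41 (adjusted p = 0.01, and 0.051 without KO E41 replicate 2) and by 3.14 ± 0.31 at E62 (adjusted p = 0.00015). STOM, stomatin, rose at E62 by 1.06 ± 0.16 (adjusted p = 0.0014). At E41, 0 rose without KO E41 replicate 2, 1 without WT E41 replicate 2 and 6 without either KO E62 library. At E62, 8 rose without KO E62 replicate 1, 2 rose without KO E62 replicate 2 and 2 without WT E62 replicate 2.

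Erythroid and hematopoietic regulators beyond GATA1 and KLF1 included genes above the detection limit. Of 20 tested, 6 rose and 1 fell at E41, and 8 rose and 5 fell at E62 (5 and 2 without WT E62 replicate 1), with medians of 0.45 and 0.51. The shares called were 35% and 65%, against 39.2% and 47.2% of all genes. TAL1, a partner of GATA1 that blood and endothelial cells share, rose by 2.08 ± 0.35 at E41 (adjusted p = 0.0029) and by 1.89 ± 0.32 at E62 (adjusted p = 0.0023). ZFPM1, the GATA1 cofactor FOG1, rose at E41 by 1.25 ± 0.21 (adjusted p = 0.0031), and LDB1 by 0.78 ± 0.09 (adjusted p = 0.00054). At E62 MYB, a factor of early blood progenitors, rose by 2.14 ± 0.34 (adjusted p = 0.0016), EPOR, the erythropoietin receptor, by 2.16 ± 0.41 (adjusted p = 0.0039) and IKZF1, of lymphoid and early blood cells, by 1.90 ± 0.29 (adjusted p = 0.0013). SOX6, which helps silence fetal globin in erythroid cells and acts in muscle, fell at E62 by 3.48 ± 0.37 (adjusted p = 6e-04), and E2F2 fell at both stages, by 1.36 ± 0.21 and 1.41 ± 0.21 (adjusted p = 0.0023 and 0.0013). TAL1 at E62 and EPOR were named after their values were seen. BCL11A, a repressor of fetal globin, fell from E41 to E62 in wild type by 3.58 ± 0.41 (adjusted p = 0.0013). ANK1, an ankyrin from the red cell membrane list, rose there by 3.08 ± 0.44 (adjusted p = 0.0016). The knockout effect on ANK1 was lower at E62 than at E41, at -3.16 (adjusted p = 0.0073). Which cells the ANK1 transcripts came from was not tested.

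Of 15 red cell enzymes and late erythroid genes, 1 rose and 3 fell at E41 and 5 rose and 3 fell at E62. The shares called were 26.7% and 53.3%, against 39.2% and 47.2% of all genes. NT5C3A, a pyrimidine nucleotidase of red cells, fell at E62 by 1.07 ± 0.13 (adjusted p = 0.00048), and BNIP3L, which clears mitochondria, rose by 0.53 ± 0.10 (adjusted p = 0.0032). SELENBP1 fell at E41 by 0.84 ± 0.15 (adjusted p = 0.0041). Without replicate 2 of WT E41 or of KO E41, 1 fell at E41. Without KO E62 replicate 2, 2 rose at E62, and without WT E62 replicate 1 or replicate 2, 3 rose.

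**Figure D5:**
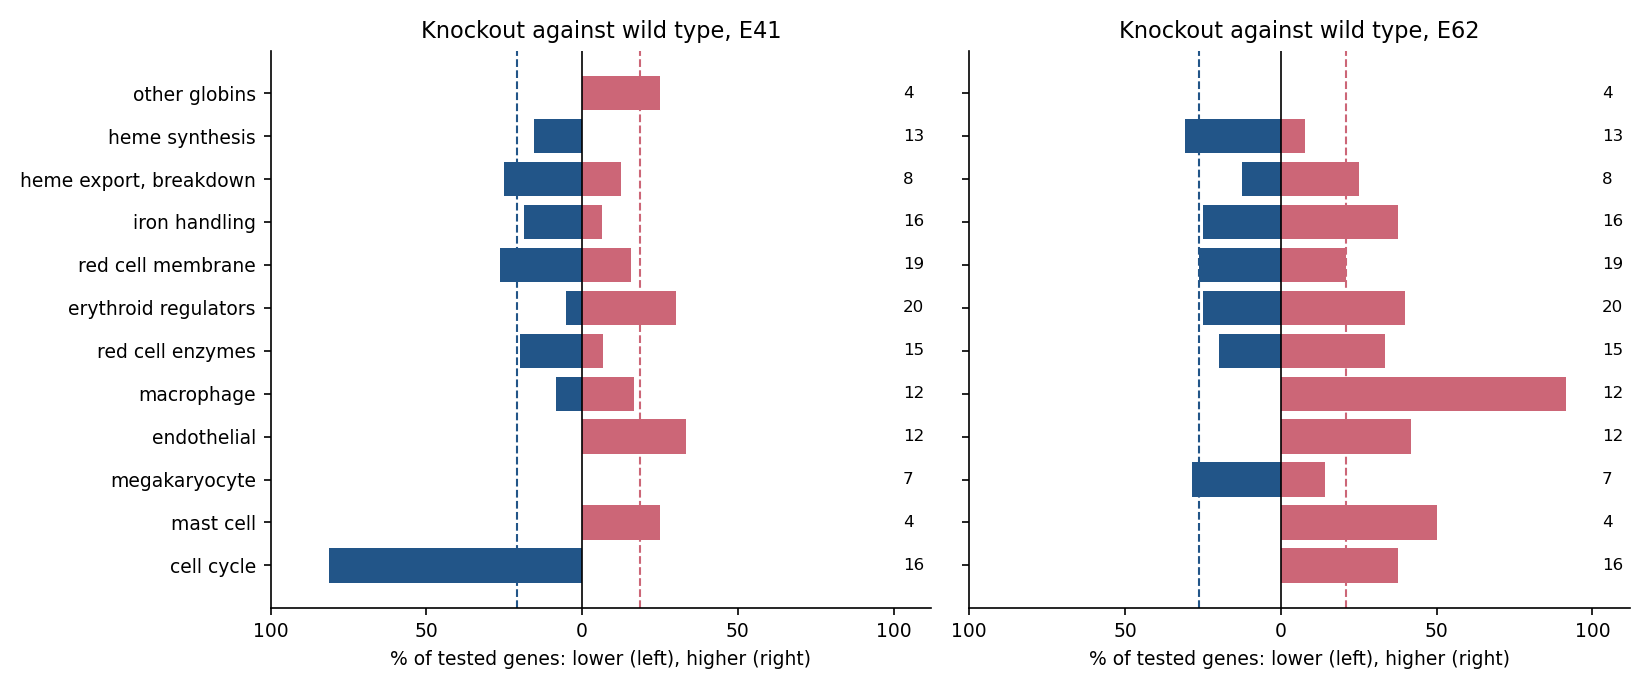
Share of the tested genes of each list shown that were lower (left) or higher (right) in knockout at E41 and E62. The number tested is at the right, and dashed lines mark the share over all tested genes. Macrophage genes were mostly higher at E62 and cell cycle genes mostly lower at E41. The muscle, leukocyte and blood progenitor lists are not shown.

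Markers of other cells were read in the same libraries, where 39.2% of all tested genes were called at E41 and 47.2% at E62. The shares called were 25% and 91.7% for macrophage genes, 33.3% and 41.7% for endothelial genes and 25% and 50% for mast cell genes. They were 0% and 42.9% for megakaryocyte genes, 0% and 50% for leukocyte genes and 28.6% and 42.9% for blood progenitor genes. For cell cycle genes they were 81.2% and 37.5%. The 12 macrophage genes summed to 308 to 338 CPM in WT E62 and 1036 to 1059 in KO E62, and 11 rose at E62 (7 without WT E62 replicate 1 or replicate 2), among them C1QA, a complement gene, by 1.92 ± 0.13 (adjusted p = 2.2e-05). At E41, C1QA rose by 0.68 ± 0.13 (adjusted p = 0.005) as 1 of 2 that rose and 1 that fell, and 9 rose without WT E41 replicate 1. The sums there were 248 to 428 CPM in wild type and 431 to 437 in knockout. Endothelial genes summed to 973 to 993 CPM in WT E62 and 1113 to 1788 in KO E62, with 4 of 12 higher at E41 and 5 at E62. ERG, an endothelial factor, rose by 1.33 ± 0.18 at E41 (adjusted p = 0.0013) and by 1.67 ± 0.18 at E62 (adjusted p = 3e-04). EGFL7, secreted by endothelium, rose at E41 by 1.76 ± 0.24 (adjusted p = 0.0016). At E41, 2 endothelial genes rose without WT E41 replicate 2 or KO E41 replicate 1 and 8 without either KO E62 library. The endothelial count at E62 was 9 without KO E62 replicate 1, 2 without KO E62 replicate 2, WT E62 replicate 2, KO E41 replicate 1 or KO E41 replicate 2, and 1 without WT E62 replicate 1.

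Mast cell genes, which share GATA1 with red cells, summed to 7.34 to 8.98 CPM in WT E41, 9.21 to 10.3 in KO E41, 10.5 to 11.5 in WT E62 and 11.5 to 17.2 in KO E62, with 1 of 4 higher at E41 and 2 at E62 (0 to 1 and 1 to 2 with a library left out). MS4A2, a subunit of the mast cell IgE receptor, rose at E62 by 2.80 ± 0.51 (adjusted p = 0.003). Of 7 megakaryocyte genes edgeR called 0 at E41, with 1 at an unadjusted p under 0.05 and 0 by DESeq2 or limma-voom, and 1 rose and 2 fell at E62 (0 and 0 without WT E62 replicate 1, 0 and 1 without either KO E41 or either KO E62 library, 1 and 1 without WT E62 replicate 2). Of 10 leukocyte genes 0 were called at E41, with 1 at an unadjusted p under 0.05, 1 by DESeq2 and 0 by limma-voom, and 5 rose at E62 (3 without either WT E62 library). Of 7 blood progenitor genes, 2 rose at E41, and 2 rose and 1 fell at E62. Cell cycle genes summed to 2572 and 2580 CPM in WT E41, 1656 and 1615 in KO E41, 1144 and 1055 in WT E62 and 1280 and 1151 in KO E62. Of 16, 13 fell at E41, among them TPX2 by 0.92 ± 0.09 on the log2 scale (adjusted p = 0.00031), and 6 rose at E62 (2 without WT E62 replicate 2, 3 without KO E62 replicate 1). At E62, 0 of these 16 fell, where 26.2% of all tested genes did. That 0 did not hold in every fit with 1 library left out. The part of any of these cells in the results was not tested.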

How the data were processed

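Bulk RNA sequencing of 8 libraries was deposited as 1 table of estimated counts per gene (expected counts) with 1 column per library, whole numbers and not normalized. Per the submitters' processing notes, Sscrofa11.1 and susScr11 were the builds, kallisto and DESeq2 the tools. Their versions and roles and the annotation release are not given. Per the labels' protocols, RNA was extracted with a column kit and libraries were made from either of a pair of TruSeq kits, stranded or not; strand of counting is not stated, so overlapping antisense genes cannot be told apart. Reads of near-identical globin copies are shared out by estimation, which leaves those genes uncertain.

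Groups came from the sample titles. Counts were rounded, filtered by filterByExpr (minimum count 10; 17020 of 22516 genes, holding at least 99.98% of counts), and given TMM factors. The model, run in R 4.3.3 by edgeR 4.0.16 with robust quasi-likelihood dispersions, had a mean for each group, used all 8 libraries and left 4 residual degrees of freedom. Tests were two-sided F tests with Benjamini-Hochberg adjustment over all genes and a threshold of 0.05; a standard error is the log2 difference divided by the square root of F. CPM are TMM-scaled. No replicate pair was as alike as sampling noise alone would make it, at a chi-square per degree of freedom of 31.9 to 70.9. Positions came from RefSeq on Sscrofa11.1, matched by symbol; no genome or sequences were used. The members, gene lists and tests were chosen with earlier results of these data known. Other genes are named, except where stated, from those with the 4 lowest p in a list and comparison, from at most 2 that went against most of their list's calls, and from the 5 genes most like ALAS2, SLC4A1, TFR2 or TFRC. The steps were tested on simulated data. Alternatives were DESeq2 1.42.0, limma-voom (limma 3.58.1), relative log expression scaling, library size alone, TMM without muscle and globin genes, globin genes out of library totals, no filter, at least 1 CPM in 4 libraries, only the groups compared, a block on replicate number, and each library left out; list counts without each library were added after seeing the data. Some genes are not reported here.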

Additional observations from a re-analysis of the deposited data

Results flagged for a closer look

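The knockout effect differed between E41 and E62, by edgeR's test of the difference itself, for these named genes, given as the log2 effect at E62 minus that at E41. It was lower at E62 for TFRC (-1.11, adjusted p = 0.034), HBQ1 (-1.73, 0.021), XK (-1.49, 0.0043), LDB1 (-0.45, 0.033), ZFPM1 (-1.74, 0.0056), SOX6 (-3.31, 0.0057), NT5C3A (-1.31, 0.003) and ANK1 (-3.16, 0.0073). It was higher at E62 for FLVCR2 (0.96, 0.036), ACO1 (0.86, 0.0065), CD44 (1.27, 0.011), ADD2 (1.78, 0.019), C1QA (1.24, 0.0032), TPX2 (1.17, 0.0014), FTL (0.96, 0.0095), HFE (1.29, 0.028), IKZF1 (1.53, 0.03), MYB (1.99, 0.02) and BCL11A (1.85, 0.045). Over all tested genes 26.8% differed in this test, so such differences are frequent in these libraries. The difference for HBQ1 lost its call without WT E41 replicate 1 (adjusted p = 0.057), KO E41 replicate 1 (0.075), KO E41 replicate 2 (0.065) or WT E62 replicate 1 (0.063). The difference for MYB lost it in limma-voom (0.077) and without WT E41 replicate 2 (0.069), KO E41 replicate 1 (0.065), KO E41 replicate 2 (0.067) or WT E62 replicate 2 (0.056). The difference for FTL lost it without KO E41 replicate 1 (0.053). With 1 library left out at a time, the call was lost for FLVCR2 in all fits but that without KO E62 replicate 1 (0.066 to 0.13), for HFE in all but those without WT E41 replicate 2 or WT E62 replicate 2 (0.051 to 0.11) and for LDB1 in all but those without WT E41 replicate 2 or KO E62 replicate 2 (0.051 to 0.11). It was lost for ADD2 in all but those without WT E41 replicate 2, WT E62 replicate 1 or KO E62 replicate 2 (0.061 to 0.075), for IKZF1 in all but those without WT E41 replicate 2 or KO E62 replicate 1 (0.067 to 0.11) and for BCL11A in all but those without either KO E62 library (0.084 to 0.15). For TFRC it was lost without either library of WT E41, WT E62 or KO E62 (0.069 to 0.096). Limma-voom lost ADD2 (0.067), IKZF1 (0.079) and BCL11A (0.16), the replicate block IKZF1 (0.052) and BCL11A (0.071), and the fit without a low-count filter BCL11A (0.059). ACO1, XK, CD44, ZFPM1, C1QA, TPX2, SOX6, NT5C3A and ANK1 kept their call in all 17 alternatives run for each.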

How the results depend on the processing

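Of 616 alternative values for the 7 tested members, 562 kept direction and side of the threshold, 18 lost a call, 10 gained one and 26 changed sign; for the other named genes 1214 of 1294 kept both and 80 lost a call. Members called at E41 were 2 (1 in limma-voom; 1 to 3 with 1 library left out), at E62 2 (3 in DESeq2, with SLC4A1; 2 to 4 with 1 library left out, the highest without KO E62 replicate 1, with KLF1 then passing the filter) and for the difference between stages 1 (0 to 1). For the wild-type stages they were 1 (2 in DESeq2, 0 in limma-voom, 0 to 1 with 1 library left out) and for the knockout stages 1 (2 in limma-voom, 0 with only the groups compared, 0 to 2 with 1 library left out). With 1 library left out, genes called ranged from 3927 to 6721 at E41 (main 6678), from 2499 to 4281 for the difference between stages (main 4553), from 4491 to 6887 in the wild-type stages (main 6782) and from 1906 to 5022 in the knockout stages (main 5126). Signs changed with 1 library left out as follows, in log2. TFRC at E41 ranged from -0.59 to 0.14. The difference between stages ranged from -0.56 to 1.29 for HBB, -0.60 to 1.12 for ALAS2, -0.77 to 0.0234 for TFR2, -5.79 to 0.30 for GATA1 and -2.62 to 0.25 for EPB42. The wild-type stage difference ranged from -1.40 to 0.45 for HBB and -1.35 to 0.38 for ALAS2, and the knockout stage difference from -0.66 to 0.47 for HBB, -0.74 to 0.45 for ALAS2, -0.0121 to 1.78 for SLC4A1 and -0.49 to 1.18 for GATA1. In the fits without a library the lone sample of its group is assumed to vary like the others. With library size alone the median of all genes moved by 0.29 at E41 and 0.304 at E62, 73.6% and 69.4% of calls were higher in knockout (47.1% and 44.5% with TMM), and TFRC at E41 was 0.10. Replicate numbers did not pair the samples (correlations of deviations from -0.0872 to 0.0683); with the replicate block 6114 genes were called at E41 and 7512 at E62, and member counts stayed at 2 and 2. GATA1, KLF1, SLC4A1 and EPB42 had as few as 7 counts or fewer in a library, so their differences are the least certain. The causes of these changes were not tested.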
